A study of Mus musculus with 4 samples.

Results

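The subject is a stretch of mouse chromosome 1, from 174471947 to 179853892 in mm10 coordinates, a length of 5.38 Mb, in which open chromatin regions ranked higher in Hox-/- than in wt mouse embryonic stem cells. It was chosen by that rank difference in these same libraries, so the difference itself is described here without a test. Peaks of 4 ATAC-seq libraries were merged where they overlapped by at least 1 bp, and 533 of the 208211 merged regions lay in the stretch. Of these, 278 were called in all 4 libraries and could be ranked in each. The 2 Mb below the stretch held 83 regions (50 in all 4 libraries) and the 2 Mb above it 305 (164 in all 4). ATAC-seq inserts sequencing adapters into accessible DNA with a transposase. The 2 genotypes, wt and Hox-/-, had 2 libraries each, and the series title gives the mutant as lacking all Hox function. Per the labels, cells of both genotypes were kept in serum medium to which leukaemia inhibitory factor, the GSK-3 inhibitor CHIR99021 and the MEK1/2 inhibitor PD0325901 had been added, and no agent was given to 1 genotype alone. Where 2 values of a genotype are given, replicate 1 comes first. Nothing in the labels says whether the replicates are separate cultures or clones, so spreads between them may be technical.

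Open chromatin in stem cells lies mostly at gene starts and at distal elements. The signal of a region depends on how often its DNA is accessible, and also on how many copies of that DNA a cell carries and on how deeply a library was sequenced. Ranking regions within a library removes the effect of total depth on the scale, but not its effect on which weak regions are called at all. None of the Hox gene clusters lies on chromosome 1.

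The wt lists held 213705 and 216795 lines, and the Hox-/- lists 191704 and 200214. Read counts were not used here, so depth is unknown. All 10 stem cell marker genes examined (Pou5f1, Sox2, Nanog and others) had a peak within 1 kb of a gene end in every library. Of 8 genes of other cell types, 6 to 7 had such a peak, depending on the library, so a called peak at a marker does not separate cell types here.

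The promoters of 6 genes show what the ranked regions look like as sequence, and how close together the summits of the 4 libraries lay. They are the 250 bases before the gene start, from RefSeq on GRCm38.p6, printed 5′ to 3′ along the gene. Capitals run from the first to the last of the 4 summits. Fmn2 lies at the lower edge of the stretch, Fh1 and Adss had some of the largest rank shifts, Cox20 had one of middle size, Tfb2m lies near the upper edge, and Parp1 lies above the stretch for comparison.
Fmn2 (chr1:174501575-174501824, plus strand): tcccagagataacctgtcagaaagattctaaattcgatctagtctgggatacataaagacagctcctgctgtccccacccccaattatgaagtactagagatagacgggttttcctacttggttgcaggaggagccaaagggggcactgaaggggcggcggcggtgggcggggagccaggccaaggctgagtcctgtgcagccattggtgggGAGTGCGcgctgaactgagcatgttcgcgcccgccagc
Fh1 (chr1:175625636-175625885, minus strand): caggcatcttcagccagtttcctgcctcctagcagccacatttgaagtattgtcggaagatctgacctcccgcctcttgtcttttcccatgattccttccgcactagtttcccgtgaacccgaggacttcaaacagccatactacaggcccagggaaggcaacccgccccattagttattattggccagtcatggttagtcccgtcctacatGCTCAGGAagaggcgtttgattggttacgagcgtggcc
Adss (chr1:177796510-177796759, minus strand): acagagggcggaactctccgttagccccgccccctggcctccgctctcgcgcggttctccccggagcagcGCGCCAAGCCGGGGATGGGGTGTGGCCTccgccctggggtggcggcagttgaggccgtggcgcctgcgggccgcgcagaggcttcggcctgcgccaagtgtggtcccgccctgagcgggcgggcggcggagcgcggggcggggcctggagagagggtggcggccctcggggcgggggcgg
Cox20 (chr1:178318903-178319152, plus strand): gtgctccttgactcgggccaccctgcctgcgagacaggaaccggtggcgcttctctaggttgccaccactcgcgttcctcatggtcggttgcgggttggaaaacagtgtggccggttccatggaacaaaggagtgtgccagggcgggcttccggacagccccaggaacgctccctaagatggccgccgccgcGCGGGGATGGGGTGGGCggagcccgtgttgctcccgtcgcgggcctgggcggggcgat
Tfb2m (chr1:179546277-179546526, minus strand): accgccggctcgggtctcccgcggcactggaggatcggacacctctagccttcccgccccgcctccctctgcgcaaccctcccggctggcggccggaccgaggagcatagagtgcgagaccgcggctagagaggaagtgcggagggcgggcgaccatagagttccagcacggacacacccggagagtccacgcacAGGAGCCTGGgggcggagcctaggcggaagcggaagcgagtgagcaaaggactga
Parp1 (chr1:180568641-180568890, plus strand): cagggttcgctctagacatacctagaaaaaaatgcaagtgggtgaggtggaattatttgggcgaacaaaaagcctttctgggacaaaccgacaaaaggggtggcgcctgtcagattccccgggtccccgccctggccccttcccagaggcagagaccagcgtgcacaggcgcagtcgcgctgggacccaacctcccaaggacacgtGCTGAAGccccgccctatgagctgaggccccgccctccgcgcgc

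In Fh1 the summits lay 35 and 36 bases before the start in wt and 38 and 31 bases before it in Hox-/-. The 4 summits thus fell within 8 bases, over both genotypes. They spanned 7 bases in Fmn2, 28 in Adss, 17 in Cox20, 10 in Tfb2m and 7 in Parp1. The printed Adss stretch had a GC content of 78.8% with 32 CG dinucleotides, and that of Fh1 52.8% with 10. Summit position was not used to choose the stretch. Over its 278 ranked regions the median distance from the first to the last summit was 24 bp, against 25 bp over 120132 ranked autosomal regions. Summits lay within 50 bp of each other in 76.6% of the stretch regions and in 75.2% of the autosomal ones. The median distance across genotypes was 13.5 bp, beside 11 bp between the wt and 12 bp between the Hox-/- libraries. Of 28 RefSeq promoters of protein-coding genes that start in the stretch, 60.7% held at least 10 CG dinucleotides in their 300 bases, beside 57.9% of 20063 autosomal promoters. Their median number of CG dinucleotides was 10 beside 14, and their median GC content 48.8% beside 57.0%.

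More regions of the stretch were called in Hox-/- than in wt. Of the 533 regions of the stretch, the wt libraries had a listed peak in 63.8% and 63.0%, and the Hox-/- libraries in 76.4% and 83.1%. In both flanks and over all autosomes the order was the reverse. Over all autosomes the shares were 80.1% and 81.2% in wt and 72.1% and 76.5% in Hox-/-. They were 81.9% and 84.3% against 71.1% and 74.7% in the lower flank, and 76.7% and 79.7% against 65.9% and 70.8% in the upper flank. The wt mean in the stretch was 63.4% ± 0.531 (SD, n = 2). For Hox-/- it was 79.7% ± 4.78 (SD, n = 2). The libraries with the shorter lists thus had the larger number of calls here. Exact 95% binomial (Clopper-Pearson) intervals in the stretch ran from 58.8% to 67.9% over the wt libraries and from 72.5% to 86.2% over the Hox-/- libraries. Such intervals hold the counting error alone, and adjacent regions may vary together.

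**Figure D1:**
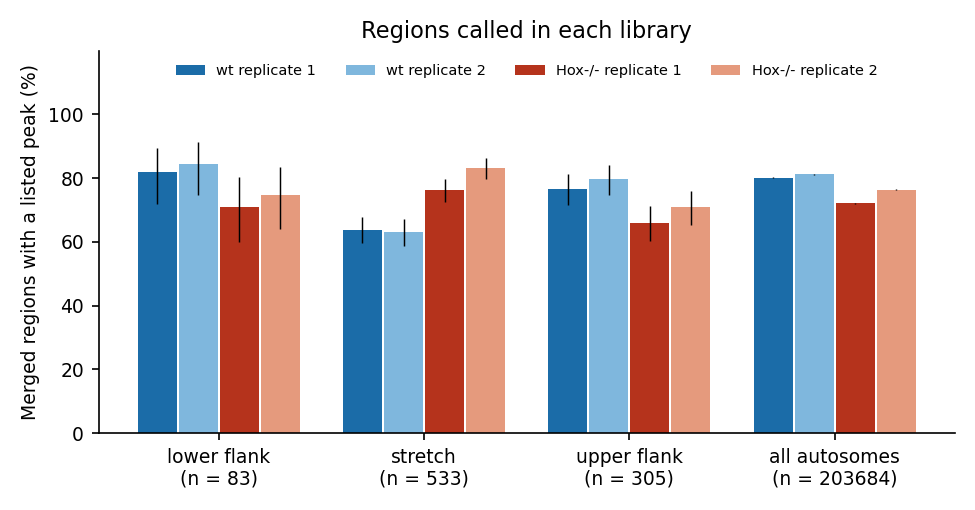
Share of merged regions with a listed peak in each library (percent, vertical axis), in the lower flank, the stretch, the upper flank and all autosomes; bars are single libraries and lines exact 95% binomial intervals. The Hox-/- bars stand above the wt bars in the stretch (76.4% and 83.1% against 63.8% and 63.0%) and below them in the other places.

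Some regions were called by both libraries of a genotype and by no library of the other. In the stretch 33 of 533 regions were called only in Hox-/-, a share of 6.19%, where 1.23% of all merged regions were. Regions called only in wt numbered 6, a share of 1.13%, where 3.83% of all merged regions were. The flanks together held 4 Hox-/- only regions (1 and 3) and 16 wt only regions (4 and 12). A further 122 regions of the stretch (22.9%) had a peak in 1 Hox-/- library alone and 20 (3.75%) in 1 wt library alone, where 7.88% and 10.97% of autosomal regions did. Regions called in 1 genotype only were weak in both directions. The best rank of a Hox-/- only region in any list was 84508, in a list of 191704 lines. For a wt only region it was 127497, in a list of 216795 lines. Their median widths were 352 and 304 bp. Of the Hox-/- only regions 32 of 33 lay more than 1 kb from the end of a protein-coding gene. So did 249 of the 278 stretch regions called in all 4 libraries, and 101913 of 120132 such autosomal regions.

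The counts of such regions rest on both libraries being there, and rose when a library was left out. Without Hox-/- replicate 1, whose list is the shortest, 105 of 484 stretch regions were called only in Hox-/-. The share of all merged regions of the remaining lists was 5.88%. Without Hox-/- replicate 2 there were 86 of 468, where 4.95% of all merged regions were. Leaving out a wt library gave 49 of 524 and 50 of 526, where 2.90% and 3.08% were. Regions called only in wt then numbered 12 to 16 over the 4 such comparisons, where 6.83% to 10.3% of all merged regions were. Regions called only in Hox-/- were spread unevenly. Pld5, which encodes an inactive member of the phospholipase D family, held 6 in its body, and the bin from 175.97 to 176.47 Mb held 8 of its 34 regions. Rgs7 (a regulator of G protein signalling), Efcab2, Kif26b and Smyd3 held 2 each. The one near a gene end lay 722 bp from Pld5. Of the 6 wt only regions, 2 lay just below Fmn2, at 174484840 and 174495704, 2 in Smyd3, 1 in Exo1 and 1 in Cnst.

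Ranks of the regions called in all 4 libraries were then compared. Each library ranked the same 122787 regions by −log10 p, with 1 the strongest, so all 4 rankings have equal length. The rank shift of a region is its mean log2 rank in wt minus that in Hox-/-, so a positive value means nearer to the top in Hox-/-. The median region of the stretch stood 56.3% and 56.7% of the way down the wt rankings, and 43.4% and 43.2% of the way down the Hox-/- rankings. The replicates of a genotype were nearly equal and the genotypes did not overlap. The median shift was 0.40, which is a rank 1.32 times nearer to the top, with the middle 50% of regions from 0.15 to 0.71. Medians for the 4 pairs of 1 wt and 1 Hox-/- library lay between 0.40 and 0.43. Between replicates the median region of the stretch moved by −0.02 in wt and −0.01 in Hox-/-, where differences of opposite sign cancel. Without regard to sign, the median difference between replicates was 0.18 in wt and 0.25 in Hox-/-. The lower flank had a median shift of −0.05, the upper flank −0.01 and all autosomes 0.00. With 1 library left out the lower flank ran from −0.14 to −0.03 and the upper flank from −0.02 to 0.01.

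Most regions of the stretch moved the same way. In the stretch 251 of 278 regions (90.3%) had a shift above 0, where 50.8% of all ranked regions did. Both Hox-/- ranks stood nearer to the top than both wt ranks in 186 regions (66.9%), where 20.5% of all ranked regions did. The reverse held in 8 regions (2.88%), where 20.3% of all ranked regions did. In the remaining 84 the ranks of the genotypes overlapped. With 1 library left out, 287 to 295 regions of the stretch were ranked. Of these, 223 to 228 stood higher in every Hox-/- library and 17 to 26 in every wt library. The shares over all ranked regions were then 34.3% to 37.1% and 33.8% to 36.0%.  The lower flank had 7 of 50 regions higher in both Hox-/- libraries and 14 higher in both wt libraries. In the upper flank these numbers were 33 and 34 of 164. Because the stretch was chosen by this shift, and because 2 against 2 libraries cannot give a p under 0.33 in an exact permutation test, these are descriptions.

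The size depended on what was ranked. Ranked by fold over background in place of −log10 p, the median shift of the stretch was 0.11, and 97 of 278 regions (background 21.3%) stood nearer to the top in both Hox-/- libraries, with 34 the other way (background 18.9%). The cause of that difference was not tested. From peak lists a genotype difference in accessibility and one in the number of copies of the stretch cannot be told apart. Within each list, the median −log10 p of the ranked stretch regions was 0.832 and 0.815 times the autosomal median in wt, and 1.23 times it in both Hox-/- libraries. The median fold was 1.00 and 0.98 times the autosomal median in wt and 1.09 and 1.10 times it in Hox-/-. Both measures were thus relatively higher in the Hox-/- lists, fold by less.

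**Figure D2:**
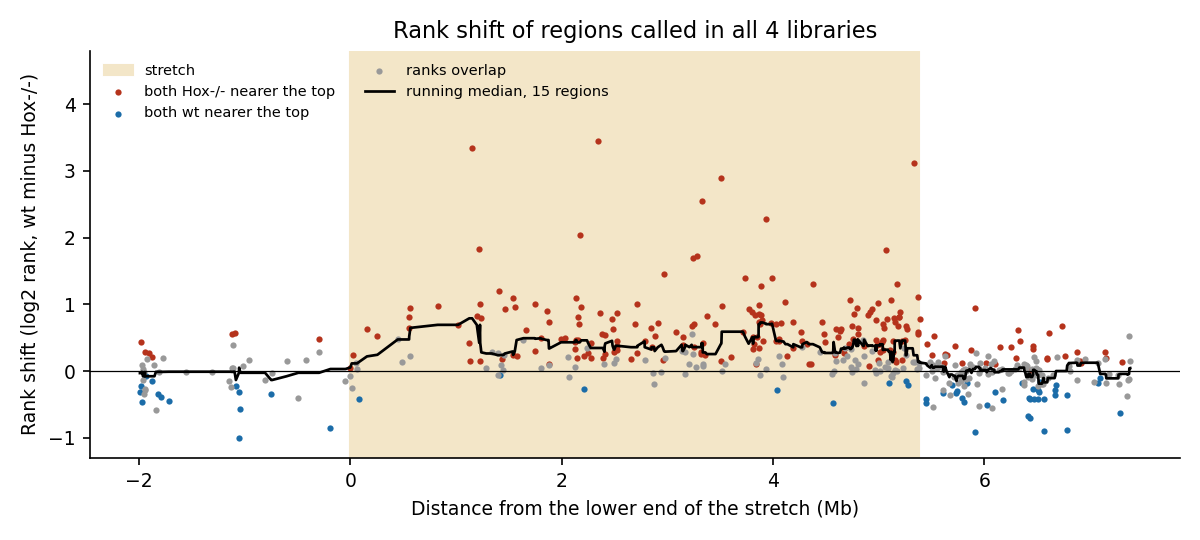
Rank shift (log2, vertical axis) of each region called in all 4 libraries against distance from the lower end of the stretch (Mb), with the stretch shaded and a running median over 15 regions as a line; colours mark whether the ranks of the genotypes overlap. Points lie mostly above 0 in the stretch (251 of 278) and on both sides of 0 in the flanks (20 of 50 and 80 of 164 above 0).

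Ranked regions of the stretch were wider in Hox-/-, where autosomal ones were narrower. The median covered width in the stretch was 516 and 512 bp for the wt libraries, and for the Hox-/- libraries it was 536.5 and 564 bp. All autosomes together had 512 and 513 bp for wt, and for Hox-/- 475 and 481 bp. The median log2 ratio of Hox-/- to wt width was 0.05 in the stretch, −0.06 over all autosomes, −0.06 in the lower flank and −0.08 in the upper flank. Peaks were wider in Hox-/- in 175 of 278 stretch regions (62.9%) and in 33.4% of autosomal regions. The total length covered by peaks in the stretch was 182.9 and 178.4 kb in wt and 209.0 and 225.8 kb in Hox-/-. Per called region, weak ones included, the mean was 538 and 531 bp in wt against 514 and 510 bp in Hox-/-. Over the 278 ranked regions alone the covered length was 166.2 and 163.6 kb in wt and 170.4 and 175.9 kb in Hox-/-. The larger total thus came mostly from regions not called in all 4 libraries, and less from wider ranked regions. Width and −log10 p come from the same signal and are not independent measures.

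The log2 shift was larger for regions that were strong in wt. All ranked regions were divided by their mean log2 rank in wt into 4 strength classes of equal size, class 1 being the strongest. In class 1 the 56 stretch regions had a median shift of 0.88, a rank 1.84 times nearer to the top, and 49 of them stood higher in both Hox-/- libraries. The medians were 0.50, 0.30 and 0.20 in classes 2, 3 and 4, with 46 of 60, 47 of 86 and 44 of 76 higher in both. The shares higher in both over all autosomes were 17.6%, 18.5%, 18.2% and 27.3% in classes 1 to 4. Over all autosomes the 4 classes had medians of −0.04, −0.03, −0.02 and 0.05. A log2 scale of ranks spreads the top of a list and compresses its end, so equal changes of signal give unequal shifts on it. Each class still had at least 86.0% of its stretch regions above 0, where 45.0% to 63.7% of autosomal regions were, the latter in class 4. With class 1 left out, an alternative chosen after seeing the data, the median shift of the remaining 222 regions was 0.30.

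**Figure D3:**
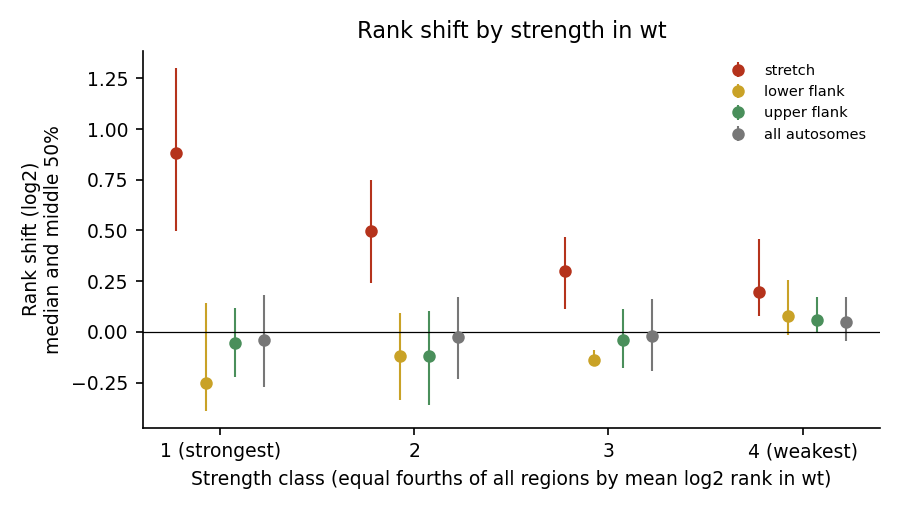
Median rank shift (log2, vertical axis) in each class of regions by strength in wt, for the stretch, both flanks and all autosomes; lines span the middle 50% of regions. The stretch falls from 0.88 in class 1 to 0.20 in class 4, while the autosomal medians lie between −0.04 and 0.05.

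The stated upper end lies between genes. Ahctf1, which encodes the nucleoporin ELYS, starts at 179804015 on the minus strand, inside the stretch, and Cdc42bpa, which encodes a kinase of the actin cytoskeleton, begins at 179960079 above it. The last 3 ranked regions inside, starting at 179845799, 179847426 and 179853438, had shifts of 0.59, 0.56 and 0.05, or 0.22, 0.11 and −0.27 ranked by fold. The last of them had −0.08 without Hox-/- replicate 2 and −0.04 without wt replicate 2, and the region at 179847426 had 0.24 without Hox-/- replicate 1 and 0.87 without Hox-/- replicate 2. Of the first 3 outside, those at 179856706 and 179859046 had shifts of 0.11 and 0.78, and that at 179916639 had −0.41. With Hox-/- replicate 1 left out the first of these had −0.01, and with replicate 2 of that genotype left out 0.26. The region at 179859046 ranked 28394 and 24482 in wt and 13845 and 17107 in Hox-/-, a shift like those of the stretch although it lies beyond the stated end. Ranked by fold its shift was 0.41. No region was called in all 4 libraries in the 56.8 kb from 179859811 to 179916639. Within 100 kb below that gap 10 of 10 regions had a shift above 0 (median 0.35), and within 100 kb above it 6 of 11 did (median 0.00). Of all ranked regions 50.8% had a shift above 0. This gap and its sides were chosen after their values were seen.

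The stated lower end lies below Fmn2, which encodes an actin-nucleating formin needed for oocyte meiosis. Up to 174551099 the stretch held 6 ranked regions, with shifts of 0.05, −0.25, 0.24, 0.11, 0.03 and −0.42. Of these, 2 stood higher in both Hox-/- libraries and 1 in both wt libraries, beside 20.5% and 20.3% of all ranked regions. The Fmn2 promoter region itself ranked 9388 and 8782 in wt and 7647 and 7685 in Hox-/-, a shift of 0.24, or 0.45 ranked by fold. The next ranked region, at 174630025 in the body of Fmn2, had a shift of 0.64. Of the 272 ranked regions from there to the upper end 247 were above 0, beside 50.8% of all ranked regions. Below the stretch the nearest 3 ranked regions, at 174284479, 174426545 and 174469707 among olfactory receptor genes, had shifts of −0.85, −0.16 and −0.08, or −1.38, −0.43 and −0.20 ranked by fold. Leaving out 1 library turned the sign of the second (0.07 without Hox-/- replicate 1) and the third (0.22 without wt replicate 2). Ranked regions are thin here: the 20 nearest below the edge spanned 1108 kb and the 20 nearest above it 1198 kb, against 232 and 186 kb on the outer and inner side of the upper edge.

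The largest step between the medians of neighbouring windows was used to place the edges. With 15 regions on each side it fell at 174943044 and, for the upper edge, at 178527847, which is 1326 kb inside the stretch. There the median dropped from 0.71 to 0.36 and stayed above 0 on both sides. With 9 and with 31 regions on each side the steps fell at 174590562 and 179888225, the midpoints of the 2 gaps named above. The step was larger at the lower than at the upper edge with each window, at 0.71, 0.68 and 0.48 against 0.56, 0.35 and 0.47 for 9, 15 and 31 regions. Single pairs of libraries with 15 regions placed the lower step between 174479538 and 174679612 and the upper one between 178527847 and 179828770. The place of the lower step thus depended on the library pair, and that of the upper step more so.

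Along the stretch the shift kept its sign and varied in size. In bins of 500 kb, all 10 bins with at least 10 ranked regions had a median above 0, from 0.12 to 0.65. The lowest was the first bin, where 4 of 10 regions stood higher in both Hox-/- libraries, beside 20.5% of all ranked regions. The highest ran from 177.97 to 178.47 Mb, around Desi2, Cox20 and Hnrnpu, where 26 of 32 did and 10 of 32 belonged to strength class 1. A bin with 5 ranked regions, from 174.97 to 175.47 Mb over Rgs7, had a median of 0.81, and its Hox-/- replicates differed there by a median of 0.47. The other bins lay between 0.27 and 0.48. The SD of the 10 medians was 0.14, beside 0.05 for the shift between the wt replicates and 0.10 for that between the Hox-/- replicates in the same bins. In bins of 250 kb, 13 of which held at least 10 ranked regions, these SDs were 0.12, 0.12 and 0.08. In bins of 1 Mb they were 0.09, 0.04 and 0.05. The shift averages 2 libraries per genotype, whereas a replicate shift compares 1 library with 1. These SDs are therefore not on the same scale, and how much of the variation along the stretch is noise was not tested. In 4 parts with nearly equal numbers of regions the medians were 0.38, 0.40, 0.43 and 0.34. All 4 bins of the lower flank lay between −0.08 and −0.01 and all 4 of the upper flank between −0.06 and 0.02.

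**Figure D4:**
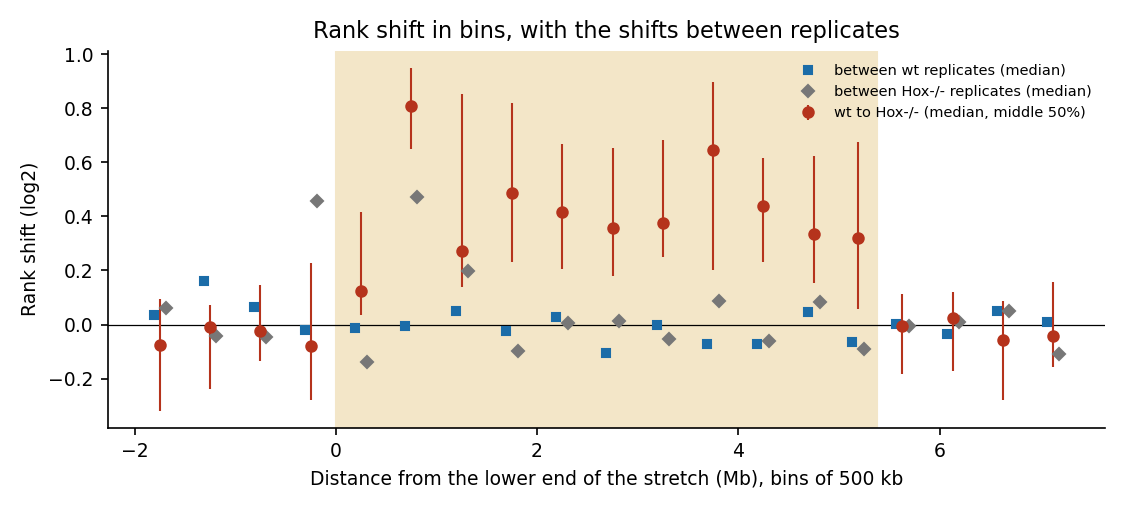
Median rank shift from wt to Hox-/- (log2, vertical axis; lines span the middle 50% of regions) in bins of 500 kb against distance from the lower end of the stretch (Mb), with the median shifts between the replicates of each genotype; the stretch is shaded and the last bin in it is shorter. Bin medians in the stretch run from 0.12 to 0.81, and those in the flanks from −0.08 to 0.02.

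Regions at gene ends had a larger median shift than others, though not in every strength class. Within 1 kb of an end of a protein-coding gene the 29 ranked regions had a median shift of 0.69, and 24 of them stood higher in both Hox-/- libraries. Away from gene ends the median was 0.36, and 162 regions stood higher in both. The shares higher in both over all autosomes were 20.1% at gene ends and 20.5% away from them. Inside genes the median was 0.33 (159 regions) and between genes 0.43 (90 regions). Over all autosomes regions at and away from gene ends had medians of 0.01 and 0.00. Ranked by fold, the stretch had 0.21 at gene ends and 0.11 away from them. With the 100000 strongest lines of each list it had 1.10 and 0.47. Gene ends held stronger regions, since 58.6% of them belonged to strength class 1 against 15.7% of the others. Within class 1 the medians were 1.73 at gene ends (17 regions) and 0.77 away from them (39 regions). Class 2 had 0.69 (3 regions) and 0.49 (57 regions). In class 3 the order was the reverse, with 0.13 (4 regions) and 0.31 (82 regions). In class 4 they were 0.17 (5 regions) and 0.20 (71 regions). The largest shift between genes was at chr1:176643890-176645012, 84060 bp from Cep170. It ranked 3110 and 2707 in wt and 444 and 1133 in Hox-/- (shift 2.03, or 0.27 ranked by fold), so that its Hox-/- replicates differed more than its wt replicates.

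The stretch holds 30 protein-coding genes, 18 long non-coding RNA genes, 2 microRNA genes (Mir350 and Gm51282), 5 small nuclear RNA genes, 11 pseudogenes and 1 transcribed pseudogene. With 5.57 protein-coding genes per Mb it has fewer than the autosomes as a whole (8.61), the upper flank (12.5) or the lower flank (24), where 19 of 48 are olfactory receptor genes. Of the 30 genes, 26 had a ranked region within 1 kb of an end. The strongest such region had a shift above 0 in all 26 (median 1.10) and stood higher in both Hox-/- libraries in 23. Of all autosomal regions at gene ends, 52.1% had a shift above 0 and 20.1% stood higher in both. In the upper flank 8 of 21 genes had a shift above 0 (median −0.06) and 5 stood higher in both. For the lower flank these numbers were 6 and 3 of 10 genes (median 0.07). Some genes share a region, so they are not 26 separate measurements.

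Genes of metabolism and mitochondria included some of the highest ranks. Fh1, the fumarate hydratase of the citric acid cycle, stood at rank 414 and 521 in wt. In Hox-/- it stood at 54 and 39, a shift of 3.34, or 1.12 ranked by fold. Adss, an enzyme of purine synthesis, ranked 941 and 806 in wt and 133 and 165 in Hox-/-, a shift of 2.56. Ranked by fold instead, Adss had a shift of −0.02. Tfb2m, a mitochondrial transcription factor, shares its region with Cnst on the other strand, and that region ranked 2049 and 3145 in wt and 691 and 755 in Hox-/-. Cox20, an assembly factor of cytochrome c oxidase, moved less, from 6651 and 7087 to 5102 and 4574 (shift 0.51). Sccpdh had a weaker region, at 73679 and 61787 in wt and 37086 and 40127 in Hox-/-. In this group all 5 genes with a ranked region stood higher in both Hox-/- libraries, as did 24 of 29 gene-end regions of the stretch and 20.1% of autosomal ones. Kmo had no ranked region. Chml, a Rab escort protein that was listed with this group, had none either.

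Genes with roles in the nucleus behaved alike in direction and differed in size. Ahctf1, next to the upper edge, ranked 895 and 582 in wt and 39 and 178 in Hox-/-, a shift of 3.11. Its Hox-/- replicates differed by more than its wt replicates. The shift was 2.02 without Hox-/- replicate 1 and 4.21 without Hox-/- replicate 2. Ranked by fold the shift of Ahctf1 was −0.08. Desi2, which encodes a peptidase of the desumoylating isopeptidase family, held the strongest region of the stretch, at 17 and 16 in wt and 12 and 10 in Hox-/-. Zbtb18, a transcriptional repressor of neural development, ranked 3577 and 3162 in wt and 1800 and 830 in Hox-/- (shift 1.46). Exo1, an exonuclease of mismatch repair, went from 14977 and 13868 to 6781 and 5795. At Hnrnpu, an RNA-binding protein of the nuclear matrix, the ranks were 32666 and 32028 in wt and 16895 and 22546 in Hox-/-. Smyd3, a lysine methyltransferase and the longest gene of the stretch at 566 kb, had 55 ranked regions in its body, of which 48 had a shift above 0 and 33 stood higher in both Hox-/- libraries (50.8% and 20.5% of all ranked regions). All 6 genes of this group stood higher in both Hox-/- libraries at their ends, beside the same 24 of 29 and 20.1%.

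Among signalling genes 6 of 7 had a ranked region near an end, all with a shift above 0, and 5 of them stood higher in both Hox-/- libraries, again beside 24 of 29 and 20.1%. Opn3, an opsin expressed outside the visual cells of the eye, ranked 1008 and 1485 in wt and 505 and 234 in Hox-/- (shift 1.83). Ranked by fold its shift was 0.03. Efcab2 went from 6753 and 5665 to 916 and 1781 (shift 2.28, or 0.74 ranked by fold). Pld5 had a shift above 0 in 10 of 10 ranked regions of its body, and 8 of these stood higher in both Hox-/- libraries, beside 50.8% and 20.5% of all ranked regions.

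Genes of the cytoskeleton, centrosome and cilium included the largest shift by −log10 p rank. Cep170, a centrosomal protein, and Sdccag8, a protein of the centrosome and cilium, are neighbours that share 1 region at 176813367. It ranked 182 and 190 in wt and 18 and 16 in Hox-/-, a shift of 3.45. Ranked by fold its shift was 0.41, below that of Fh1. In the body of Sdccag8 16 of 16 ranked regions had a shift above 0 and 13 stood higher in both, beside 50.8% and 20.5% of all ranked regions. Kif26b, a kinesin family member, had its strongest end region at 91665 and 87800 in wt and 66087 and 88269 in Hox-/-, which overlapped. Of the 17 ranked regions in its body 16 had a shift above 0, beside 50.8% of all ranked regions. Catspere2, a subunit of a sperm ion channel, had a region at 1700 and 1594 in wt and 343 and 142 in Hox-/- (shift 2.90, or 0.36 ranked by fold), whereas the end region of Catspere1 was weak and overlapped. Because the stretch was chosen for this direction, nothing is read from these counts about any group of genes.

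**Figure D5:**
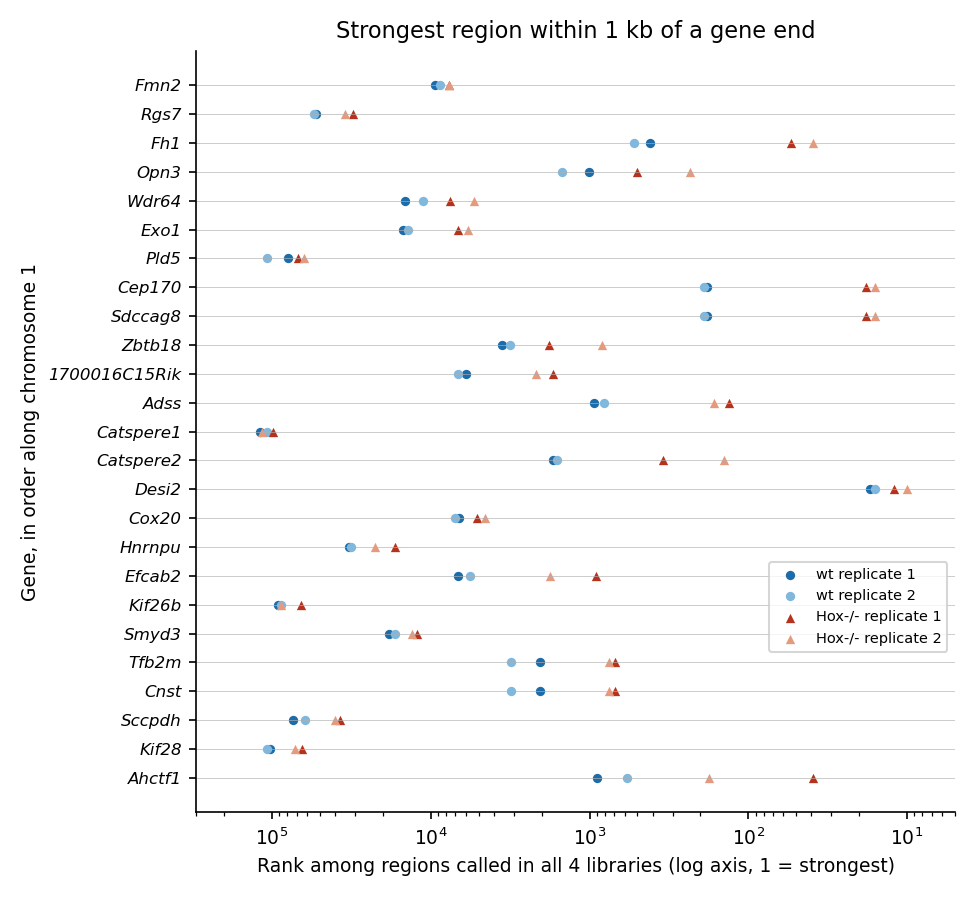
Rank of the strongest region within 1 kb of an end of each of 25 protein-coding genes of the stretch (log axis, 1 = strongest, to the right), in chromosomal order from top to bottom; circles are wt and triangles Hox-/- libraries. Triangles lie to the right of both circles in 23 of the 25 genes, from 12 and 10 at Desi2 to 64839 and 71630 at Kif28. Of all autosomal regions at gene ends, 20.1% stood higher in both Hox-/- libraries.

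Regions that went the other way were few. The 5 lowest shifts of the stretch were −0.48, −0.42, −0.28, −0.27 and −0.25. Ranked by fold the same regions had −0.78, −0.63, −0.83, −1.21 and −0.41. Leaving out 1 library moved some of them: the last had 0.02 without wt replicate 1 and −0.53 without wt replicate 2, and that at 176688324 had −0.42 and −0.12. The lowest by −log10 p rank belonged to a region in Smyd3 at 179041607, which ranked 56111 and 68332 in wt and 90825 and 81758 in Hox-/-. The others started at 174550594 in Fmn2, at 178506799 below Kif26b, at 176688324 below Cep170 and at 174486048 below Fmn2. None lay within 1 kb of a gene end, and the nearest to one was 15213 bp away. The 2 in and below Fmn2 belong to the first 6 ranked regions of the stretch.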

How the data were processed

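The authors deposited 1 peak list per library, so replicates were not pooled. Per the submitters' processing notes the build was mm10 and the tools included Bowtie2 2.5.0, Picard 2.18.2 and MACS2 2.2.9.1; their settings are not given in the sources used here. Each deposited line has a fold over background (a ratio), a −log10 p and −log10 q, a score that is 10 times the −log10 q to within 1, and a summit. The lowest −log10 q was 1.30 in each list, so weaker peaks are not listed. Depth is unknown. With Python 3.11.15 and pandas 2.3.3, lines of the 4 libraries were merged into regions at an overlap of at least 1 bp, and regions called in all 4 were ranked within each library by their strongest line. These per-peak values are the authors' own and were used within a list only. Gene names and promoter sequences are from RefSeq, GRCm38.p6. The scripts were tested on simulated lists. The stretch, the gene groups and the rules for named regions (those next to the edges, 8 largest and 5 lowest shifts, 5 best ranks, gene ends) were chosen with earlier results of these data known. For positions at the edges, the sets on either side of the 2 gaps were chosen after their values were seen. Libraries with the same number were not treated as pairs. Between the genotypes, the rank differences between replicates had r = 0.00402 over 122787 regions and −0.102 over the 278 of the stretch. Such values cannot show whether libraries were prepared together. Values of some single genes are not reported here.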

Additional observations from a re-analysis of the deposited data

How the results depend on the processing

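The stretch kept its direction under every alternative run, and its size did not. Ranked by fold, its median shift was 0.114, with 97 regions higher in both Hox-/- and 34 in both wt libraries, 0.211 at gene ends and 0.111 away from them, 0.0239 in the upper flank and edges at 175972657 and 178283809. Under the same ranking the regions at Adss (177795835) and Ahctf1 (179802859) turned to −0.0222 and −0.0772; the cause was not tested. With the 100000 strongest lines of each list, the difference in calls was 19.8 percentage points, 24 and 0 of 253 regions were Hox-/- and wt only (2.10% and 2.33% of all merged regions), the shift was 0.507, and 119 and 3 of 156 ranked regions stood higher in Hox-/- and wt (20.7% of all ranked regions each). The flanks then had −0.148 and −0.0412, gene ends 1.10, other regions 0.471, and the upper edge fell at 179856469. At a −log10 q of at least 5 the flanks had −0.0997 and −0.0120 and the edges fell at 174679612 and 179686106. Ranks in the whole list gave 0.466, and 0.00351 in the upper flank, which had −0.0153 at 50% cover. A gene-end window of 2.5 kb gave 0.488. With 9 and with 31 regions on each side the edges fell at 174590562 and 179888225. A further 2 settings were chosen after seeing the data: shifts scaled by strength class put the edges at 174590562 and 177983945, and leaving out class 1 put the edges at 174590562 and 179556120 and the shift at 0.297.

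Leaving out each library in turn gave 49 to 105 Hox-/- only and 12 to 16 wt only regions, among 468 to 526 merged regions of the stretch. The shares over all merged regions were 2.90% to 5.88% and 6.83% to 10.3%. The shift was 0.348 to 0.410. Of 287 to 295 ranked regions, 223 to 228 stood higher in Hox-/- and 17 to 26 in wt (34.3% to 37.1% and 33.8% to 36.0% of all ranked regions). Flank shifts ran from −0.143 to −0.0294 and from −0.0209 to 0.00930, those at gene ends from 0.612 to 0.758 and away from them from 0.326 to 0.381, and width ratios from 0.0339 to 0.0611 (log2). Edges ran from 174543914 to 174943044 and from 179738926 to 179850949, so that each such upper edge lay nearer to the stated end than the one from all 4 libraries. The main results did not treat libraries with the same number as pairs. With the replicate number as a block the shift was 0.397. Then 210 regions were higher in Hox-/- and 12 in wt, where 28.3% and 27.9% of all ranked regions were.

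The lists hold called peaks only, depth is unknown, and signal below the calling threshold was not analysed here.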

Other observations

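Other windows of chromosome 1 give the scale of the shift. Of 146 windows of 1 Mb outside the stretch with at least 10 ranked regions, the median shift ran from −0.16 to 0.63, and 2 were above 0.2. The 6 windows that touch the stretch had medians of 0.12 to 0.47, so the highest window of the chromosome lay elsewhere, from 143 to 144 Mb, with 23 ranked regions.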
